A study of Danio rerio with 57 samples.

Results

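Places that carried H3K9me3 at all 6 time points were followed through early zebrafish development, from 2 to 4.5 h post fertilisation (hpf). The authors deposited 1 list of H3K9me3 regions for each of 2, 2.5, 3, 3.5, 4 and 4.5 hpf. Regions of the 6 lists on chromosomes 1 to 25 that touched or overlapped were merged into 62659 union places. The places were chosen by measured values, the listed regions themselves: each of the 6 lists had to overlap a place by 1 bp or more. This left 3311 places, or 5.28% of all union places. The 2 hpf list marked 6371 union places, so 52.0% of them were found again in every later list. The remaining 3060 were missing from at least 1 later list. These other 2 hpf places are nearly as many as the 3311 and serve below as the comparison.

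The series mapped H3K9me3 by CUT&RUN in whole embryos of the AB strain, without mutation or treatment in any group. CUT&RUN tethers a nuclease to an antibody in intact nuclei, which frees short DNA fragments at marked nucleosomes for sequencing. The time course holds 17 H3K9me3 libraries made with an Abcam antibody, 2 at 2 hpf and 3 at each later time, and 10 IgG libraries, whose control antibody has no chromatin target. The 30 libraries of a confirmation experiment, with H3K9me3 antibodies from 3 suppliers, were not used here. The lists do not name their libraries, and 2.5 and 4.5 hpf also occur in the confirmation experiment, so the assignment of the lists to the time course rests on their names. A whole embryo mixes all its cells, and more cells with the mark cannot be told apart from more of the mark per cell.

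H3K9me3 is the trimethylation of lysine 9 on histone H3. It is placed by methyltransferases of the SUV39 and SETDB1 families and bound by HP1 proteins, which compact chromatin and can recruit further methyltransferase, so that the mark can spread from a starting site along the chromosome. It covers pericentromeric repeats and transposable elements in most animals. In zebrafish the earliest cell cycles are fast and the genome is mostly silent, the cycles lengthen in the blastula, and zygotic transcription then begins in earnest. The series title speaks of nucleation and reinforcement of the mark, neither of which a region list shows directly. In a place seen from the first list to the last, covered length can be followed, though not always over the same bases.

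The choice of places used the same lists that give their lengths, so the lengths, gains and distances below are descriptions, and no test was made on them. Each time point is 1 pooled list, no spread between embryos can be given, and read depth is unknown. The number of regions per list ran from 7516 at 2 hpf to 51200 at 4 hpf and 33704 at 4.5 hpf, and the step from 2 to 2.5 hpf is also the step from 2 to 3 libraries. The 4.5 hpf list stands apart on 6 chromosomes. Its median region signal on chromosomes 1 and 10 to 13 was 5.09 times that of the 19 chromosomes outside the 6, against 0.954 times at 4 hpf. On chromosome 14 beyond 13.6 Mb it holds 8 regions, where the 4 hpf list has 1143. Values without chromosomes 1 and 10 to 14 are therefore given beside the main ones. On those 19 chromosomes 2663 places were found in every list.

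The places were short at 2 hpf and several times longer 2 h later. Their median covered length was 874 bp at 2 hpf, with quartiles of 554 and 1507.5 bp. In the next 3 lists it was 2005, 3377 and 4579 bp. The medians of the last 2 lists, 5122 and 5250 bp, lay close together, so most of the length was present by 3.5 hpf. On the 19 chromosomes the last 2 medians were 5069 and 5036 bp. At 4 hpf the quartiles were 3121.5 and 7823 bp and the longest place had 82210 bp covered. The quartile ranges at 2 and 4 hpf did not overlap. The per-place ratio of length at 4 hpf to length at 2 hpf had a median of 4.92 and quartiles of 3.01 and 8.37, or 4.83 without the 6 chromosomes.

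**Figure D1:**
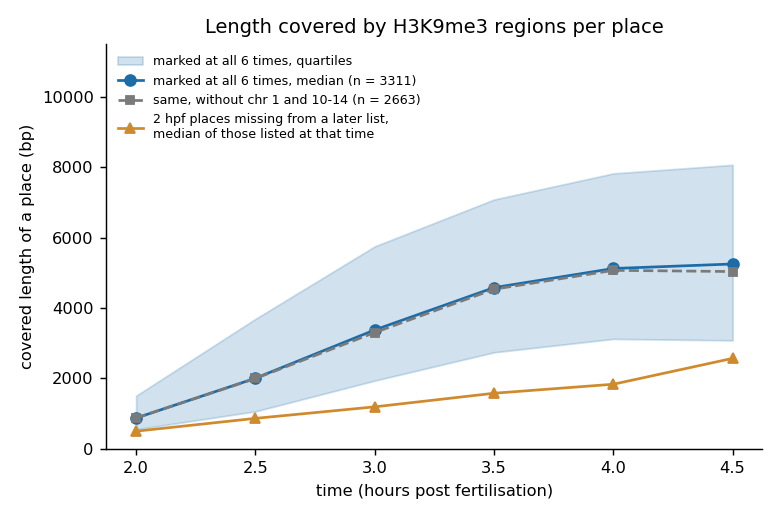
Covered length per place (bp) against time (hours post fertilisation). The filled line and band give the median and quartiles of the 3311 places, the dashed line their median without chromosomes 1 and 10 to 14, and the triangles the median of the other 2 hpf places that were listed at each time. The median of the 3311 places goes from 874 bp to 5250 bp, while the other places reach 2569 bp.

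Of the 3311 places, 89.9% had at least 2-fold their 2 hpf length at 4 hpf, where the share over all 2 hpf places was 64.0%. At least 5-fold was reached by 49.3%, against 32.3% of all 2 hpf places. Being listed at 4 hpf is part of the rule, so nothing is read from these differences. A place was shorter at 4 than at 2 hpf in 14 cases. Growth was uneven from list to list in most places. In 38% of the 3311 the covered length was longer in each list than in the one before, up to 4 hpf. Of the other 2 hpf places 3.2% had such a rise. Absence from a list up to 4 hpf breaks the rise, so nothing is read from this difference either. Step by step, 86.2% of the 3311 places were longer at 2.5 than at 2 hpf and 84.9% at 3 than at 2.5. Then 79.7% were longer at 3.5 than at 3 and 71.8% at 4 than at 3.5. From 4 to 4.5 hpf 53.1% were longer and 46.8% shorter, and without the 6 chromosomes 49.3% and 50.6%. The last step thus had nearly equal numbers in both directions. Measured against its own longest list, a place had a median of 18% of that length in the first list, and 40.9%, 67.4% and 87.4% in the next 3.

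The 3311 places made up a smaller part of the later lists. They held 67.6% of the covered chromosome length of the 2 hpf list, and 44.2%, 34.2% and 27% in the next 3 lists. The 4 hpf value was 23.8%. The 4.5 hpf value was 26%, or 24.6% on the 19 chromosomes. Each of the 3311 has a 2 hpf region by the rule, while places first marked later add only to the later lists. The lower shares there are thus largely set by the rule, and nothing is read from them. The total length of the 3311 places was 4.25 Mb in the first list, 21.4 Mb in the fifth and 22.8 Mb in the last. On the 19 chromosomes the fifth and last values were 16.5 and 16.4 Mb, so their order turned. In the 4 hpf list the 3311 places had a median covered length of 5122 bp, and the 41589 other places listed then had 1008 bp. A place overlapped in 6 lists takes in more regions than one overlapped in 1, so part of this difference follows from the rule.

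The earliest step with the largest gain in covered length was found for each place. It was the step from 2 to 2.5 hpf in 983 places (29.7%), from 2.5 to 3 hpf in 30.2% and from 3 to 3.5 hpf in 800 (24.2%). A further 294 (8.88%) gained most from 3.5 to 4 hpf and 235 (7.1%) from 4 to 4.5 hpf. On the 19 chromosomes the last share was 3.23%, less by more than 1.5 times. The first 2 steps therefore held the largest gain about equally often, the third somewhat less often, and the later ones were less frequent still. Over all 6371 2 hpf places the first step held the largest gain in 19.1%. Among the 3060 other places that share was 7.58%, and 33.4% of them had no gain in any step. In the later steps the other places had 22.2%, 23%, 9.71% and 4.15%, where the 3311 had 30.2%, 24.2%, 8.88% and 7.1%. The shares from 3 to 3.5 hpf and from 3.5 to 4 hpf were thus alike in both sets. From 4 to 4.5 hpf the order turned on the 19 chromosomes, with 3.23% of the 2663 and 3.56% of the other places. The first-step gain of a place requires it to be listed at 2.5 hpf, which the rule asks of the 3311 and not of the others. The timing of the largest gain is therefore not read as a trait of the 3311.

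Places that gained most early were somewhat longer to begin with. Those with the largest gain from 2 to 2.5 hpf had a median of 1017 bp at 2 hpf and 5791 bp at 4 hpf. Those with the largest gain from 3 to 3.5 hpf had 780 bp and 4938 bp. The gain itself was of like size in the first 3 steps, with medians of 2745, 2437 and 2479 bp. As a part of the sum of all steps in which a place gained length, it had medians of 53.5%, 53.3% and 53.3%. Where the largest gain fell in the fourth or the fifth step, the medians were 48.4% and 46.9%.

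**Figure D2:**
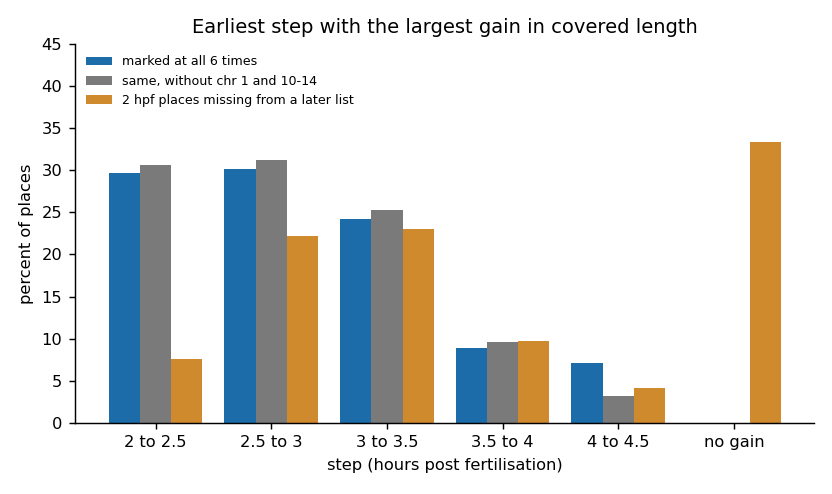
Percent of places (bars, from 0) by the earliest step with their largest gain in covered length. Blue bars are the 3311 places, grey bars the 2663 on the 19 chromosomes without 1 and 10 to 14, and orange bars the 3060 other 2 hpf places. The first 3 steps hold 29.7%, 30.2% and 24.2% of the 3311 places, and 33.4% of the other places had no gain.

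Being covered in every list did not always mean that the same bases were covered. In 2626 places (79.3%) at least 1 base was covered in all 6 lists, and in 685 places (20.7%) none was. Without the 6 chromosomes the first share was 80.2%. Where bases were shared, their length had a median of 766 bp, with quartiles of 491 and 1405.5 bp. This was 95.2% of the 2 hpf length and 15.7% of the union width, again as medians. The whole 2 hpf length was covered in every later list in 1135 places. The shared bases summed to 2.98 Mb. Most 2 hpf bases thus stayed inside later regions wherever a shared base existed.

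The 685 places without a shared base had a median of 602 bp at 2 hpf, against 986 bp in the places with one, and similar lengths at 4 hpf, 5262 and 5068.5 bp. In 419 of the 685 no 2.5 hpf region touched the 2 hpf bases, and in 262 no 3 hpf region did. At 3.5, 4 and 4.5 hpf these numbers were 88, 47 and 63. The mismatch thus lay mostly in the 2 lists that follow 2 hpf. Over all 3311 places, 78.6% of the 2 hpf bases were covered at 2.5 hpf. In the next 4 lists it was 87.9%, 95.5%, 97.5% and 96.2% of them.

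Growth was measured on each side as the distance from the outer edge of the 2 hpf regions of a place to the outer edge of the later regions lying over them. Left means toward lower coordinates. At 2.5 hpf the median reach was 210.5 bp on the left and 204 bp on the right, and 50.8% of the 2892 places with such a region reached beyond the 2 hpf edges on both sides. A further 41.4% did so on a single side. At 3 hpf 71% and at 3.5 hpf 87.5% had gained on both sides. At 4 hpf it was 2985 of 3264 places (91.5%), with medians of 1488.5 bp on the left and 1264.5 bp on the right. The share over all 2 hpf places with a 4 hpf region over the 2 hpf region was 86.1%, and among the 1530 other 2 hpf places 74.6%. A longer 4 hpf region passes both edges more easily, and the rule favours longer regions. Nothing is therefore read from this difference. A gain of any length counted here. With at least 200 bp on each side the shares of the 3311 places' set were 26.6% at 2.5 hpf and 77.8% at 4 hpf. By this measure early reach was thus often single-sided and late reach mostly on both sides. Where a place had several 2 hpf regions, a side also counted as not gained if no later region lay over the outermost one. Part of the single-sided share may be of that kind, and the share for places with a single 2 hpf region is not given.

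The lengths of both sides were nearly unrelated. Spearman's rho between left and right reach across places was 0.068 at 2.5 hpf and 0.099 at 4 hpf, as a description over places that share their lists. The longer side held a median of 96.1% of the reach at 2.5 hpf and still 75.4% at 4 hpf. A single 2 hpf region was therefore seldom the exact centre of the later one. In the 2664 places with a single 2 hpf region and a net gain over it, the centre of that region lay at a median of 51.7% of the way along the 4 hpf extent, with quartiles of 34% and 68.9%. It lay between 25% and 75% in 68.7% of these places. It lay within the first 10% in 75 places and within the last 10% in 78. Reach toward the nearer chromosome end and toward the middle of the chromosome was alike at 4 hpf, with medians of 1375 and 1359 bp.

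**Figure D3:**
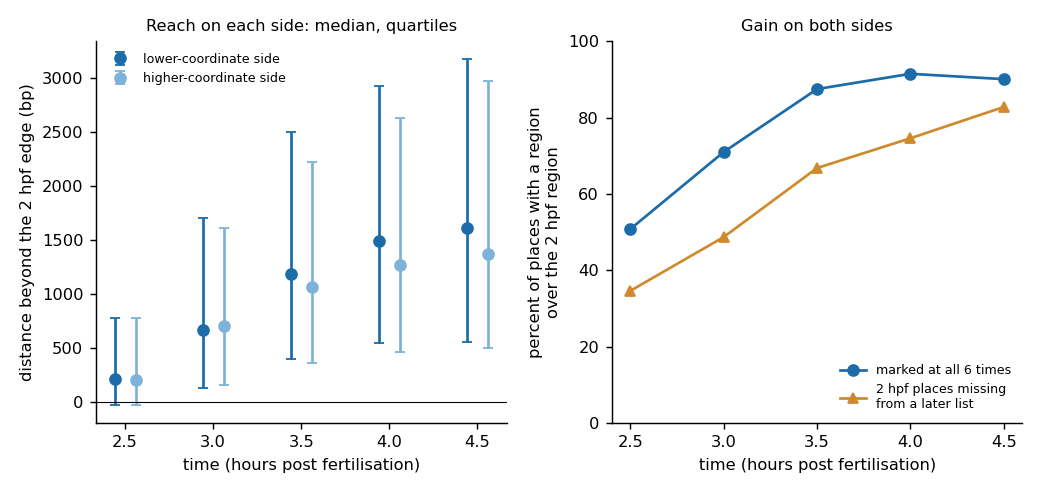
Left panel: distance (bp) that later regions reach beyond the 2 hpf edges, as medians with quartile bars for the lower-coordinate and higher-coordinate side, against time (hours post fertilisation). Right panel: percent of places with a gain on both sides, for the 3311 places (circles) and the other 2 hpf places (triangles). The circles go from 50.8% at 2.5 hpf to 91.5% at 4 hpf.

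Some places held several separate 2 hpf regions. A single 2 hpf region lay in 2726 places (82.3%), and 585 (17.7%) held at least 2, up to 7. Over all 2 hpf places 10.4% held at least 2, and of the other 2 hpf places 2.52%. Separate 2 hpf regions enter a union place together only where regions of other lists bridge them, so nothing is read from these shares. In the 585 places the outermost 2 hpf edges were a median of 5173 bp apart. A single region spanned them in 16.9% of the places at 2.5 hpf. In the lists that followed it did so in 37.9%, 56.8%, 72.5% and 77.1%. The last 2 values were 78.4% and 74% on the 19 chromosomes, so the order of 4 and 4.5 hpf turned. Since such places exist only where later regions filled the gaps, that the gaps closed is largely set by the union, and the values describe in which lists a single region spanned them. The number of separate regions per place was 1.23 at 2 hpf, highest at 2.5 hpf with 1.46, and 1.07 at 4.5 hpf.

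The longer a 2 hpf place was, the more often it was found in every later list. Among places with under 500 bp covered at 2 hpf it was 27.3% of 1515. It was 48% of 3091 from 500 to under 1000 bp, 75.2% of 1165 from 1000 to under 2000 bp and 88.9% of 530 from 2000 to under 5000 bp. Of the 70 places with 5000 bp or more it was 94.3%. A longer place also offers more bases for a later region to overlap. Separate 2 hpf regions are summed only where regions of other lists bridge them, so the class is partly set by the later lists. On the 19 chromosomes the shares followed the same order, from 27.9% to 93.8%. Exactly 500 bp was covered in 10.5% of the 3311 places and in 21% of the other places.

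Within a class of 2 hpf length, the 3311 places were longer at 4 hpf than the other 2 hpf places that were listed then. The classes are ranges, so 2 hpf lengths within a class were not equal. From 500 to under 1000 bp, exactly 500 bp was covered in 347 of 1484 of the 3311 places and in 644 of all 1607 others. Under 500 bp the medians were 3590.5 and 1440.5 bp, and from 500 to under 1000 bp they were 4297 and 1741 bp. From 1000 to under 2000 bp they were 5625 and 3891 bp, and from 2000 to under 5000 bp 8449 and 6240 bp, the last with only 35 other places. Over all classes the ratio of medians was 2.79, and the longer median was that of the 3311 places on 25 of 25 chromosomes. The ratio was thus smaller, 1.45 and 1.35, in the classes from 1000 bp to under 2000 bp and from 2000 bp to under 5000 bp. A longer 4 hpf region also meets more regions of the other lists, which the rule asks for. Nothing is therefore read from these differences in 4 hpf length. Relative growth was smaller in longer places. The median ratio of 4 to 2 hpf length went from 8.64 under 500 bp to 6.18, 4.09, 3 and 2.91 in the successive classes. The same 2 hpf length sets the class and divides in the ratio, so part of this order is built in.

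**Figure D4:**
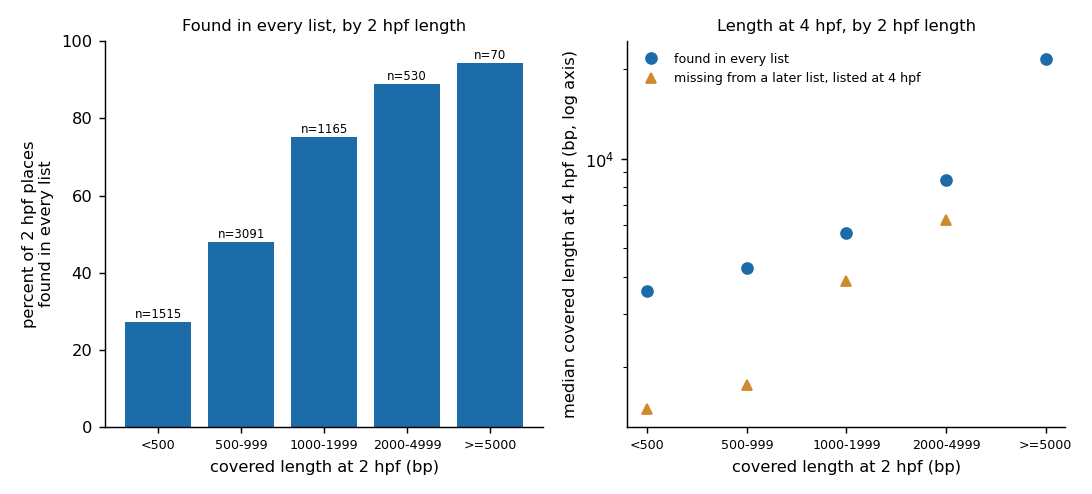
Left panel: percent of 2 hpf places found in every list, by covered length at 2 hpf in bp, with the number of places above each bar. Right panel: median covered length at 4 hpf (bp, log axis) of the 3311 places (circles) and of the other 2 hpf places listed at 4 hpf (triangles; the class of 5000 bp and over, with 1 such place, is left out). The bars go from 27.3% to 94.3%, and each circle lies above its triangle.

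The places lay on all 25 chromosomes, at 24.6 per 10 Mb over 1345 Mb. The length of a chromosome was read from the last region end over the 6 lists. Chromosome 25 had the highest density, 36.5 per 10 Mb, followed by chromosome 22 with 35.8 and chromosome 3 with 32.1. These 3 had 243, 281 and 359 places marked at 2 hpf. Of those, 56.4%, 49.8% and 56% were found in every list, beside 52.0% over all chromosomes. The density depends on the number of 2 hpf places as well as on this share. Chromosome 14 had the lowest density, 14.2, and also the lowest share of its 2 hpf places found in every list, 29.3%. There 88 places were missing from the 4.5 hpf list alone, the list with 8 regions on most of that chromosome. Next to it came chromosome 21 with 18.9 per 10 Mb. The shares of 2 hpf places found in every list on the other 24 chromosomes ran from 47.3% on chromosome 23 to 62.9% on chromosomes 1 and 19.

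The outer 1 Mb of the chromosomes, 3.72% of the total length, held 305 of the 3311 places (9.21%). It held 7.91% of the other 2 hpf places and 6.9% of all union places. On the long arm of chromosome 4, taken from 28 Mb and also 3.72% of the length, lay 198 of the 3311 places (5.98%), 6.8% of the other 2 hpf places and 5.74% of all union places. The arm share of the places on the 19 chromosomes was 7.44%, since fewer places remain. The 178 arm places that lay outside the outer 1 Mb had median lengths of 799.5 and 6916 bp in the 2 and 4 hpf lists, with a median ratio of 7.4 per place. The 305 places in the outer 1 Mb had 860 and 4385 bp and a ratio of 4.4. The 2828 elsewhere had 876.5 and 5104.5 bp and a ratio of 4.85. The arm places were thus the shortest of the 3 groups at 2 hpf and the longest at 4 hpf.

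Neighbouring places were close to each other. The distance from a place to the nearest other one, edge to edge, had a median of 70329 bp and quartiles of 19908 and 217592 bp. For the other 2 hpf places the median was 91749.5 bp. Within 50 kb of another lay 41.9% of the 3311 places, against 36.2% of the other places, and 55.6% when all 6371 2 hpf places are counted together, a denser set. The 3311 places had the lower median distance on 19 of 25 chromosomes. The 3311 also outnumber the 3060, which alone tends to shorten distances within a set, so nothing is read from this order. Within 10 kb the shares were 14.4% and 15% and within 200 kb 73.5% and 70.4%, so the sets were alike at the short end. Among places with 1000 to under 2000 bp at 2 hpf the order turned, with medians of 62907 bp for the 3311 places and 46844 bp for the others, and from 2000 to under 5000 bp, with 36669 and 6987 bp.

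**Figure D5:**
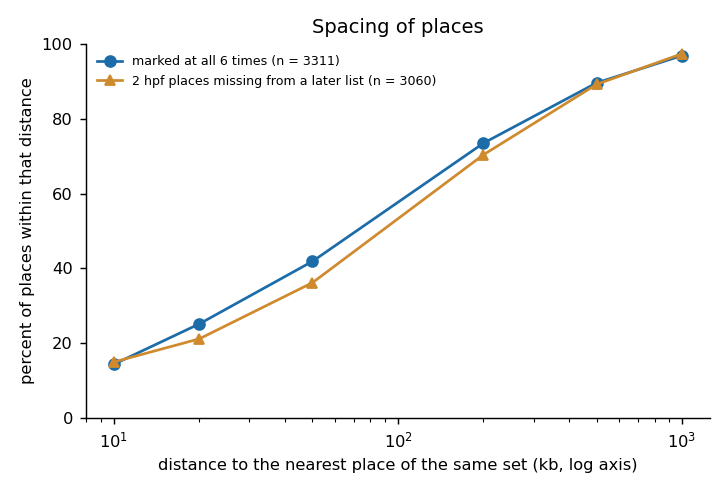
Percent of places with another of the same set within a given distance (kb, log axis), for the 3311 places (circles) and the 3060 other 2 hpf places (triangles). At 50 kb the values are 41.9% and 36.2%, and at 10 kb they are 14.4% and 15%.

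Joined at distances of up to 50 kb, the 3311 places formed 2455 groups, of which 1923 were single places, 358 were pairs and 110 held 3. The 64 groups of at least 4 places held 10.3% of the 3311, against 6.6% of the other 2 hpf places in groups of that size. A more numerous set also tends to form larger groups, so nothing is read from this difference. Places within 50 kb of another were longer at 2 hpf, with a median of 1016.5 bp against 783 bp for the more isolated ones, and at 4 hpf, with 6039.5 bp against 4521 bp. Their median ratios of 4 to 2 hpf length, 5.24 and 4.76, differed less. Grouped places were thus longer from the start.

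The group with the most places held 15 and lay on chromosome 14, from 12847329 to 13489721, a span of 642 kb. Its covered part was 5.92%, 16.4%, 26.2%, 33.8%, 39.2% and 53.8% of the span in the 6 lists. It lies just before the point beyond which the 4.5 hpf list of that chromosome is nearly empty. A group of 12 on chromosome 3, from 2740704 to 3105668, was covered over 11%, 25.2%, 39.7%, 36.9%, 45.9% and 45.1% of its span, and 7 of its places gained most from 2.5 to 3 hpf. A group of 12 near the end of the chromosome 4 long arm, from 77165610 to 77514152, was covered over 5.21%, 15%, 22.6%, 32.4%, 33.9% and 30.4%, and 5 of its places gained most from 3 to 3.5 hpf. Their covered parts at 2 hpf compare with 0.468% of all chromosomes, and groups chosen for many close places must lie above it.

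Places first marked later lay a little nearer to the 3311 than to the other 2 hpf places. Of the 12079 places first marked at 2.5 hpf, 33.9% were within 50 kb of one of the 3311 and 30.3% within 50 kb of one of the 3060. For places first marked at 3, 3.5, 4 and 4.5 hpf the pairs were 27.9% and 25.3%, 26.3% and 22.8%, 24.1% and 21.5%, and 20.8% and 20%. The 3311 also outnumber the 3060, which alone puts more of the genome within reach. Both series of values became lower with later first marking. The median distance to the nearest of the 3311 was 98332 bp for places first marked at 2.5 hpf and 169453 bp for those first marked at 4.5 hpf.

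The signal that the authors' files give each region was higher inside the 3311 places than elsewhere in the same list. Its unit is not stated, so ranks within a list are given. From 0% for the weakest to 100% for the strongest region, the median rank of regions in the 3311 places was 64.9% at 2 hpf. It was 77.2%, 83.8%, 88.7% and 90.5% in the next 4 lists. In the 4.5 hpf list it was 82.7%, or 86.8% on the 19 chromosomes. Regions outside the 3311 places had median ranks between 30.8% and 46.1%. In the lists after 2 hpf most of these lie in places without a 2 hpf region. The rule asks for a listed region in all 6 lists, which may favour strong regions. Nothing is therefore read from the difference in rank. Regions inside were also wider, with a median of 4061 bp against 946 bp outside at 4 hpf, and whether signal follows width was not tested. Regions that the authors named primary, a word no header explains, made up 45.3% of the regions inside the 3311 places at 2 hpf and 13.4% of those outside. At 4.5 hpf the shares were 14.7% and 14.1%. A deposited p-value under 0.05 was held by 13.9% of the regions inside and 3.01% of those outside at 2 hpf. Inside, the share was highest at 3 hpf, 32.1% against 6.37% outside, and at 4.5 hpf it was 9.77% against 8.32%. Most regions inside thus had a p-value of 0.05 or more in every list, by a test that is not stated. When only regions named primary were used in every list, 83 places were found in all 6. With only the regions at or below the median p-value of each list, 449 were. The number of such places thus rests on the full lists.

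Among the 3311, the longest unbroken runs of bases covered in all 6 lists were 6682, 6449, 6342, 6004 and 5717 bp. No such run can exceed the 2 hpf region that holds it, so these places had to be broad at 2 hpf. The run of 6682 bp, on chromosome 10 from 2467002 to 2473683, belongs to a place with 4 regions at 2 hpf, whose covered length was 12645, 20287, 26229, 25307, 30729 and 37628 bp in the 6 lists. At chromosome 6, 20839977 to 20846425, the run of 6449 bp is the whole 2 hpf region, and by 4 hpf the place had gained 1064 bp on the left and 2217 bp on the right. At chromosome 13, 7307733 to 7314074, the whole 2 hpf region of 6342 bp was likewise retained, with 1118 bp added on the left and 1751 bp on the right at 4 hpf. At chromosome 15, 10782899 to 10788902, the run of 6004 bp lies in a place of 4 regions that covered 12306 bp at 2 hpf and 28165 bp 2 h later. At chromosome 7, 3921902 to 3927618, the run of 5717 bp lies in a place with 11294 bp at 2 hpf, all of it in every later list, and 18460 bp 2 h later. In relative terms these places grew less than the typical one, at 1.45-fold to 2.43-fold from 2 to 4 hpf. A long run asks for a long 2 hpf length, which also divides in the ratio, so this order is largely built in.

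The 5 largest gains from 2 to 4 hpf came from places with 3 to 7 separate regions at 2 hpf. On chromosome 1, the place from 28231454 to 28332648 had 7910 bp covered in 7 regions at first, and then 23953, 40628, 68387, 82210 and 101195 bp. The place at chromosome 4, 28726414 to 28804443, at the start of the long arm, had 1612, 2821, 30915, 48143, 75108 and 77691 bp in the 6 lists, 46.6-fold from 2 to 4 hpf. On chromosome 17, the place from 39899318 to 39971543 had 7167, 14889, 69231, 60325, 57257 and 61059 bp. Most of its length thus appeared in a single step of 54342 bp. At chromosome 14, 12847329 to 12933710, the lengths were 10776, 20533, 39271, 53906, 60579 and 86370 bp. At chromosome 13, 19165629 to 19247289, they were 5453, 19367, 49947, 44061, 50737 and 76863 bp. Only the places on chromosomes 4 and 17 lie outside the 6 chromosomes that stand apart at 4.5 hpf. In the 4.5 hpf list the chromosome 1, 4, 13 and 14 places were each a single region, and the place on chromosome 17 had 4. That single region is the whole width of the chromosome 1 place. It covers 86370 of 86382 bp of the chromosome 14 place and 76863 of 81661 bp of the chromosome 13 place. Which earlier regions are summed in these places thus depends partly on the 4.5 hpf list.

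A few places were nearly the same length throughout. The place at chromosome 9, 51815173 to 51818835, had 3083, 2992, 3359, 3363, 3364 and 3500 bp in the 6 lists. On chromosome 7, the place from 61303838 to 61305883 had 1739, 1867, 1883, 2037, 1996 and 1829 bp. On chromosome 5, the place from 1985846 to 1989292 had 2929, 2924, 3268, 3426, 3221 and 3297 bp. The ratio of the shortest to the longest length was 0.855, 0.854 and 0.853 in these 3. The place at chromosome 19, 47967628 to 47969599, ranged from 1610 to 1972 bp and the place at chromosome 12, 4096978 to 4100642, from 2885 to 3604 bp. All 5 consisted of a single region in every list.

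The most one-sided reach at 4 hpf was to the left in all 3 places the rule named. They came from 752 with a single 2 hpf region and a net reach of at least 5000 bp. At chromosome 9, 42737365 to 42745089, the 4 hpf region reached 6243 bp beyond the left edge of the 923 bp 2 hpf region and ended 321 bp short of its right edge. At chromosome 25, 21948662 to 21955504, it reached 6232 bp to the left of a 572 bp region and ended 272 bp inside it. At chromosome 18, 34447615 to 34454008, it reached 5812 bp to the left of a 428 bp region and ended 249 bp inside it. In each of these places the 2 hpf region forms the right end of the whole place, and no base was covered in all 6 lists. At the chromosome 9 and 25 places no region of the 2.5, 3 or 4.5 hpf list shared a base with the 2 hpf region. At the chromosome 18 place no 2.5 hpf region did.

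At the threshold of the rule, the shortest length in the least covered list was 250 bp. This is the width of a listed region and not of an overlap between lists, and the size of the contacts that chain regions into a place was not measured. The 3 shortest were at chromosome 8, 6796428 to 6799403, with 250 and 2770 bp in the 2 and 4 hpf lists, at chromosome 11, 29460087 to 29464350, with 254 and 1284 bp, and at chromosome 16, 2724666 to 2729276, with 257 and 2756 bp. The least covered list was that of 2 hpf in 84.4% of the 3311 places and that of 2.5 hpf in 12.2%. Just outside the rule, 5541 places were missing only from the 2 hpf list, 449 only from 2.5 hpf, 127 only from 3 hpf, 25 only from 3.5 hpf, 8 only from 4 hpf and 364 only from 4.5 hpf. Of the last 364, 88 lay on chromosome 14, and 212 lay on the 19 chromosomes. The 5541 had a median of 2849 bp at 4 hpf and lay a median of 52962 bp from the nearest 2 hpf region. The list that kept most places out of the set was thus the first one, which is also the shortest.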

How the data were processed

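H3K9me3 CUT&RUN was carried out on whole zebrafish embryos, and the authors deposited 1 region list per time point, without header. Tools named in the submitters' processing notes, with no role, are HOMER, bedtools, Picard, SAMtools, STAR and Trim Galore. Not given in the sources used here are the genome build, the libraries behind each list and how replicates were combined. By their values, the deposited columns hold position, a region name, a score capped at 1000, a signal of unstated unit, a p-value and a q-value. Depth per library is unknown, so no counting interval is given. No genome or annotation of the build was at hand, so places are named by position alone, counted from 1, and no sequence is printed.

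Python 3.11.15 with numpy 2.4.6, pandas 2.3.3, scipy 1.17.1 and matplotlib 3.10.9 was used. Touching regions were joined within a list before counting, and then across lists into union places. Scaffolds were left out. Covered length is the sum of a list's regions in a place. Growth used the later regions that share a base with a 2 hpf region. Width classes use covered length at 2 hpf and stand in for width-matched places. Rotated or randomly matched places were not used. The functions were tested on simulated lists with known answers. Named places are the 5 longest runs covered in all lists, the 5 largest gains from 2 to 4 hpf, the 5 with the most equal lengths, the 3 most one-sided, the 3 with the most neighbours and the 3 nearest the threshold. The places, lists and measures were chosen with earlier results of these data known.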

Additional observations from a re-analysis of the deposited data

Results flagged for a closer look

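The unplaced scaffolds were used in no comparison above and carry places of the same kind. On them 138 places were found in every list, on 116 scaffolds. They were 6.05% of the 2282 scaffold union places and 54.8% of the 252 scaffold places marked at 2 hpf, beside 5.28% and 52.0% on the chromosomes. Their covered lengths in the 2 and 4 hpf lists had medians of 817 and 4396.5 bp.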

How the results depend on the processing

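No paired analysis was possible because each time point is 1 pooled list and no value belongs to a replicate. Under other settings 57 values were computed. Of these, 33 lay within 1.5 times (counts, lengths and ratios) or the 95% exact binomial interval (shares) of the main value. The other 24 moved further, and whether a comparison reversed was not checked. Of the 33, 7 come from asking for 200 bp in every list, which could change no value because the smallest length is 250 bp. That interval covers counting error only and treats places as independent, which neighbours are not. With unions built from regions named primary alone, 83 places were in all lists. Their median length at 4 hpf was 3023 bp, 33.7% gained most in the first step, 93.9% gained on both sides, 92.8% shared bases and 2.41% lay within 50 kb of another. With only the regions at or below the median p-value of each list there were 449 places, with 2840 bp at 4 hpf. The shares were 32.3% gaining most in the first step, 89.6% gaining on both sides, 85.3% sharing bases and 11.8% within 50 kb. Using the 5 lists up to 4 hpf gave 81.8% sharing bases and 45.4% within 50 kb. Joining regions up to 1 kb apart gave 90.2% with gain on both sides and 76% sharing bases. Asking for 200 bp on each side gave 77.8% with gain on both sides. The first step held the largest gain in 27.8% of places with a single 2 hpf region. Within 20 kb and 200 kb lay 25.2% and 73.5%, and in the outer 2 Mb 17.5%. Without the 6 chromosomes 7.44% lay on the chromosome 4 arm, a setting chosen after the data were seen. The length ratio to other 2 hpf places was 1.45 for 1000 to under 2000 bp and 1.35 for 2000 to under 5000 bp at 2 hpf. It was not computed at 5000 bp and over, where 1 other place was listed at 4 hpf. Except where fewer regions or places enter by construction, the cause was not tested.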

Other observations

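The reach of later regions was not the same on both sides in the later lists. At 4 hpf the left side, toward lower coordinates, was the longer one in 1736 of the 3264 places with a 4 hpf region over the 2 hpf region and the right side in 1526, and more places reached further left on 20 of 25 chromosomes. At 2.5 hpf, over 2892 places, the numbers were 1437 and 1451, and 11 of 25 chromosomes. Among places with a single 2 hpf region the 4 hpf numbers were 1420 and 1259, also on 20 chromosomes, while at 2.5 hpf the right side was the longer one more often, 1201 against 1119. Without the 6 chromosomes that stand apart at 4.5 hpf, the 4 hpf numbers over all places were 1398 and 1228. The other 2 hpf places had 764 and 766 at 4 hpf. In the 66 places with 5000 bp or more at 2 hpf the median reach at 4 hpf was 2234.5 bp on the left and 1013.5 bp on the right. This was the smallest class, and the shorter classes were closer to even. From the shortest class up, their left and right medians were 1168 and 1017, 1385 and 1293, 1537 and 1254, and 1785 and 1404 bp. No test was made, and the orientation of a chromosome's coordinates has no strand or gene behind it here.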
